A study of Mus musculus with 6 samples.

Results

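The heat shock proteins described here are 10 genes, Hspa1a, Hspa1b, Hspa8, Hsph1, Dnajb1, Dnaja1, Hsp90aa1, Hspb1, Hspd1 and Hspe1, out of 34099 genes in the deposited count matrices. They were picked by symbol, and their unique molecular identifiers (UMIs, random tags that mark each captured RNA molecule) were summed per mouse over each annotated cell type and each tumor cluster. The genes were selected on values measured in these same cells, with earlier results of these data known, and which of those values counted in the choice is not recorded. Each stress difference below is therefore a description of these 6 mice and not independent evidence. Liver tumors of 3 control mice and 3 stress mice, all wild type, were profiled with a 10x Genomics library for each mouse. All were male C57BL/6J mice whose liver had been injected with H22 cells, a murine hepatocellular carcinoma (HCC) line, so every tumor came from the same line. Stress mice had gone through chronic unpredictable mild stress, a schedule of changing mild stressors, whereas control mice were housed without stressors. The annotation held 31535 cells of control mice and 27259 cells of stress mice, with 184798748 to 187728350 UMIs per control mouse and 149558935 to 158405366 UMIs per stress mouse.

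Counts of control mice were made with Cell Ranger 9.0.0 and those of stress mice with 7.1.0, per the file headers, so the effects of stress and of the software version cannot be told apart in any stress difference given here. Of the 58794 annotated cells, 778 carried a barcode sequence that occurs in more than 1 library. Tumor cells had the highest level of 3 of their 5 markers (Krt18, Cldn6 and Afp), whereas Krt8 was highest in hepatic stellate cells (HSCs) and Mki67 in the neutrophil class. All 5 NK/T markers, all 5 B cell markers and all 7 endothelial markers were highest in the type of their name. So were all 5 markers each of HSCs and inflammatory myeloid cells, 4 of 5 for dendritic cells, and 3 of 5 each for monocytes and neutrophils. Of the dendritic list, Clec9a was highest in endothelial cells. Ly6c2 and Lyz2 of the monocyte list were highest in neutrophils, and Csf3r and Cxcr2 of the neutrophil list in inflammatory myeloid cells. Cells annotated as M-MDSCs (monocytic myeloid-derived suppressor cells) had the highest level of 0 of their 5 markers, and Arg1 was at 3.91 CPM (UMIs of a gene per 1000000 UMIs of that mouse and cell type) there against 1396 CPM in monocytes, so that name stands here only as the label of the annotation.

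Heat shock proteins are molecular chaperones, proteins that bind unfolded chains, keep them from clumping and help them fold. When proteins are damaged, the transcription factor HSF1 (heat shock factor 1) forms a trimer, binds heat shock elements in the promoters of these genes and switches them on rapidly. Tumor cells are known for high chaperone levels, and the same genes respond to heat, hypoxia, oxidants and the handling of tissue.

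Hspa1a (chr17:34969190-34972156) and Hspa1b (chr17:34956436-34959238), both on the minus strand in GRCm38, encode the stress-inducible HSP70 and lie side by side. Hspa8 (chr9:40800984-40810087, plus) encodes HSC70, the HSP70 that cells make at all times, and Hsph1 (chr5:149614287-149636376, minus) encodes HSP110, which helps HSP70 exchange its nucleotide. Dnajb1 (chr8:83608193-83612653, plus) and Dnaja1 (chr4:40722150-40737149, plus) encode HSP40 proteins, which hand substrates to HSP70. Hsp90aa1 (chr12:110690605-110702728, minus) encodes the inducible HSP90, which finishes the folding of kinases and receptors, and Hspb1 (chr5:135887919-135889563, plus) encodes a small heat shock protein that holds unfolded proteins. Hspd1 (chr1:55077835-55088243, minus) and Hspe1 (chr1:55088132-55091307, plus) encode mitochondrial HSP60 and its lid HSP10, and lie head to head.

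Heat shock elements are built from repeats of GAA and its reverse complement TTC. Windows of 250 bases before to 50 bases after the annotated start were given by RefSeq (GRCm38.p6) for 8 of the 10 genes, and Hspa8 and Hsp90aa1 had no entry. Both 2-unit forms, GAANNTTC and TTCNNGAA, read the same on both strands and share bases where they overlap. GAANNTTC occurred in 7.86% and TTCNNGAA in 8.52% of all 32851 promoter windows, and either form in 15.1%. At least 1 window of 7 of the 8 genes held a form, and no window of Dnajb1 did. The 8 genes had 13 windows in all, so this count of genes is not like the share of windows. Windows of Hspd1 and Hspe1 overlap, and those of Hspa1a and Hspa1b are nearly the same upstream, so these genes are not separate cases. Runs of 3 alternating units occurred in 0.603% of all windows and in windows of Hsph1, Hspd1 and Hspe1. The stretches below are shown because they carry these forms upstream of the genes whose values follow. Only the GAA and TTC units within these forms are in capitals, and any other GAA or TTC is in lower case. The Hspa1a and Hspa1b stretches (chr17:34972217-34972296 and chr17:34959299-34959378, minus strand) start at -140 from the annotated start, the Hspb1 stretch (chr5:135887776-135887855, plus strand) at -143, and the Hspe1 stretch (chr1:55088053-55088082, plus strand) at -95, where it also lies upstream of a start of Hspd1 on the other strand and overlaps an annotated exon.
Hspa1a: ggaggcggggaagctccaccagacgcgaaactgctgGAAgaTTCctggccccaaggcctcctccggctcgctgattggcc
Hspa1b: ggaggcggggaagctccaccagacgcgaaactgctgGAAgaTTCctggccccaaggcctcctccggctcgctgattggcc
Hspb1: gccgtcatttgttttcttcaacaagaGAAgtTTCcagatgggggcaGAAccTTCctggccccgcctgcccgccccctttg
Hspe1: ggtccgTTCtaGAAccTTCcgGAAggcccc
The same 8 letters began at -104 in Hspa1a and in Hspa1b, whose 250 upstream bases were the same at 247 positions. Hspb1 held GAANNTTC at 2 positions, at -117 and at -97, and Hspe1 held 4 alternating units from -89 on. A match of letters is a description of the window and not a measured binding site.

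The pair Hspa1a and Hspa1b is nearly identical in part, and 38.1% of all 150-base windows of the Hspa1a transcript are also in Hspa1b. In the last 600 bases, 0 of 451 such windows of either transcript are in the other. Reads from the shared part could be assigned to either gene or dropped, so the split between the pair is uncertain, and their sum was tested as well in each cell type. The sum was called in B cells (a log2 difference of 2.32, adjusted p = 0.0042), NK/T cells (1.70, adjusted p = 0.0028) and M-MDSCs (1.40, adjusted p = 0.024), beside 0.259%, 0.509% and 0.307% of all genes called higher in the same fits, and in none of the other 5 tested types. It was not tested in the tumor clusters, so the calls on Hspa1a and Hspa1b there rest on the deposited split.

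In tumor cells of stress mice, 4 of the 10 heat shock proteins rose. Hspa1b, Dnajb1, Hspa8 and Hsp90aa1 passed the threshold (edgeR quasi-likelihood test on UMIs summed per mouse, Benjamini-Hochberg adjusted p under 0.05), and 0 of the 10 genes fell. Of all 18856 genes tested in tumor cells, 12.0% were called higher in stress mice and 9.46% lower. Levels are given in CPM of all UMIs of the cell type, and differences as log2 fold changes, stress against control, after TMM scaling.

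**Figure D1:**
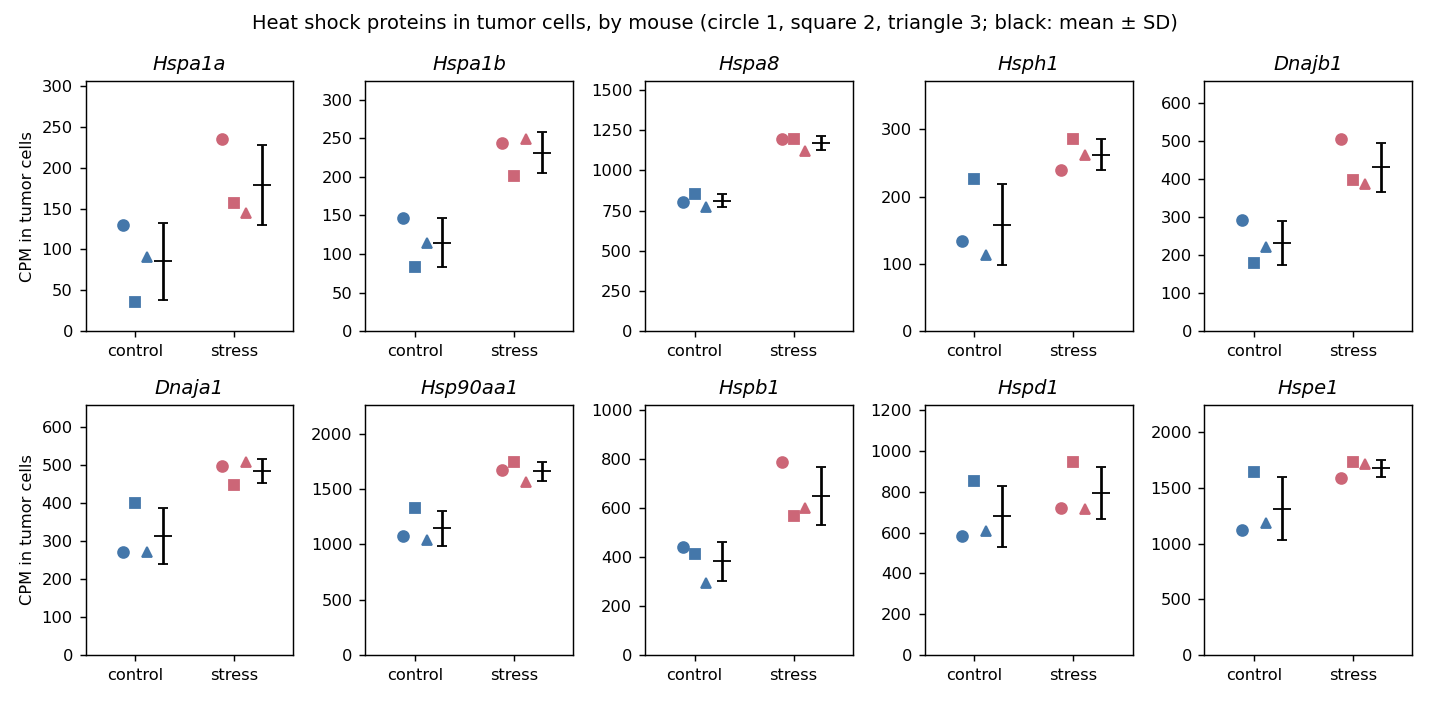
CPM of each heat shock protein in tumor cells, with 1 marker per mouse (circle, square and triangle for mice 1, 2 and 3), blue for control and red for stress mice, and black bars for the mean ± SD of 3 mice. The groups do not overlap for 8 genes, and they overlap for Hspd1 and Hspe1.

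Hspa1a, the inducible HSP70, was at 130.1, 35.8 and 90.6 CPM in control mice 1, 2 and 3 and 235, 157 and 145 CPM in stress mice 1, 2 and 3. The groups did not overlap, but the control mice spread from 35.8 to 130.1 CPM and the log2 difference of 0.93 (SE 0.44, adjusted p = 0.17) did not pass the test. Its neighbor Hspa1b was at 146, 83.0 and 114 CPM in control mice 1, 2 and 3 and 244, 201 and 249 CPM in stress mice 1, 2 and 3. Here the group means were 115 ± 31.7 and 232 ± 26.3 CPM (SD, n = 3 each), and Hspa1b rose with a log2 difference of 0.87 (SE 0.21, adjusted p = 0.028). The sum of both genes differed by 0.90 (SE 0.30, adjusted p = 0.068), so the call on Hspa1b was not kept when the pair was counted as 1 gene. Hspa8, the constitutive HSP70, was at 806, 853 and 774 CPM in control mice 1, 2 and 3 and 1197, 1194 and 1124 CPM in stress mice 1, 2 and 3. Its spread within each group was the narrowest of the 10 genes relative to its level, with means of 811 ± 40.0 and 1172 ± 41.4 CPM (SD, n = 3 each). The log2 difference of Hspa8 was 0.39 (SE 0.09, adjusted p = 0.025). Hsph1, the HSP110 partner of HSP70, was at 134, 227 and 114 CPM in control mice 1, 2 and 3 and 239.6, 286 and 261 CPM in stress mice 1, 2 and 3. Control mouse 2 was the highest control and close to the stress mice, and the log2 difference was 0.59 (SE 0.22, adjusted p = 0.092).

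Among the HSP40 cochaperones, Dnajb1, a partner of inducible HSP70, was at 293, 180.0 and 221 CPM in control mice 1, 2 and 3 and 505, 398 and 387 CPM in stress mice 1, 2 and 3. The groups did not overlap and Dnajb1 rose with a log2 difference of 0.76 (SE 0.21, adjusted p = 0.041). Dnaja1, a farnesylated HSP40 of the cytosol, was at 271, 399 and 271 CPM in control mice 1, 2 and 3 and 497, 449 and 508 CPM in stress mice 1, 2 and 3. Control mouse 2 again stood nearest to the stress mice, and the log2 difference of 0.49 (SE 0.16, adjusted p = 0.059) missed the threshold.

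Hsp90aa1, the inducible HSP90, was at 1073, 1327 and 1035 CPM in control mice 1, 2 and 3 and 1673, 1739.9 and 1566 CPM in stress mice 1, 2 and 3. The means were 1145 ± 159 and 1659 ± 87.9 CPM (SD, n = 3 each) with no overlap, and Hsp90aa1 rose by 0.40 (SE 0.12, adjusted p = 0.046) on the log2 scale. Hspb1, the small heat shock protein, was at 439.7, 411 and 293 CPM in control mice 1, 2 and 3 and 786, 566 and 598 CPM in stress mice 1, 2 and 3. Its groups did not overlap either, and its log2 difference of 0.64 (SE 0.20, adjusted p = 0.057) missed the threshold.

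The mitochondrial pair had the smallest log2 differences of the 10 genes. Hspd1 was at 582, 852 and 607 CPM in control mice 1, 2 and 3 and 723, 945 and 716 CPM in stress mice 1, 2 and 3, with overlapping groups and a log2 difference of 0.08 (SE 0.16, adjusted p = 0.74). Hspe1 was at 1122, 1639 and 1179.7 CPM in control mice 1, 2 and 3 and 1589, 1728 and 1712 CPM in stress mice 1, 2 and 3, where control mouse 2 lay above stress mouse 1. The log2 difference of Hspe1 was 0.21 (SE 0.14, adjusted p = 0.30).

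All 10 log2 differences in tumor cells were positive, with a median of 0.54 beside -0.01 over all genes tested. For 8 of the 10 genes every stress mouse lay above every control mouse, a separation seen for 28.2% of all genes tested in tumor cells. Every stress mouse lay below every control mouse for 10.1% of all genes. These separations were counted on CPM without TMM scaling. The number of genes past the threshold depended on single mice. It was 6 without control mouse 2 and 2 without control mouse 1, beside 15.3% and 5.72% of all genes called higher in the same fits. It was 0 without control mouse 3 (3.79% of all genes) or without stress mouse 1 (7.32%), and 1 without stress mouse 2 (5.74%) or without stress mouse 3 (6.89%). The share over all genes thus moved as well when a mouse was left out. DESeq2 called 7 of the 10 genes higher in stress mice, beside 13.1% of all genes.

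Other chaperones were described from lists of related genes, whose counts stand beside the 12.0% of all tumor cell genes called higher and the 9.46% called lower. Among 26 other cytosolic chaperones and cochaperones, 0 rose and 3 fell in stress mice, namely Hspb6, a small heat shock protein (-1.02), Cdc37, which brings kinases to HSP90 (-0.70), and Dnajc7, an HSP40 protein (-0.30). Among 14 genes of the cytosolic chaperonin and prefoldin, which fold actin and tubulin, Cct8 (-0.54) and Pfdn5 (-0.44) fell and 0 rose. Among 16 endoplasmic reticulum chaperones, Pdia6 (-0.42) and Pdia4 (-0.41), both disulfide isomerases, fell and 0 rose. Among 8 mitochondrial chaperones and proteases, the HSP70 cofactor Grpel1 rose (0.35), and the mitochondrial HSP70 Hspa9 (-0.42) and the protease Lonp1 (-0.34) fell. Hsf1 itself, 1 of 3 heat shock factor genes, was at 23.3, 28.1 and 24.3 CPM in the control mice and 22, 22.9 and 22.3 CPM in the stress mice and fell by 0.31 on the log2 scale (adjusted p = 0.046). With 2 or 3 members called lower out of 14 to 26, the 3 largest of these chaperone lists were near the share of all genes called lower. The list medians were -0.16, -0.15, -0.12, -0.19 and -0.18 in that order.

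Immediate-early genes are, like heat shock genes, known to be switched on while tissue is taken apart into single cells. Of 15 such genes, 0 rose and Fos, Ier2 and Egr1 fell in tumor cells, with log2 differences of -1.16, -1.0 and -0.83 and a list median of -0.30. The list summed to 7010.4, 5905 and 6533 CPM in the control mice and 5845, 4992 and 5764 CPM in the stress mice, and the groups did not overlap, although the highest stress mouse was close to the lowest control mouse. The median mitochondrial share of UMIs per tumor cell was 3.59, 3.87 and 4.59% in the control mice and 5.30, 5.61 and 5.25% in the stress mice, without overlap. The part of either measure in the heat shock protein differences was not tested.

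**Figure D2:**
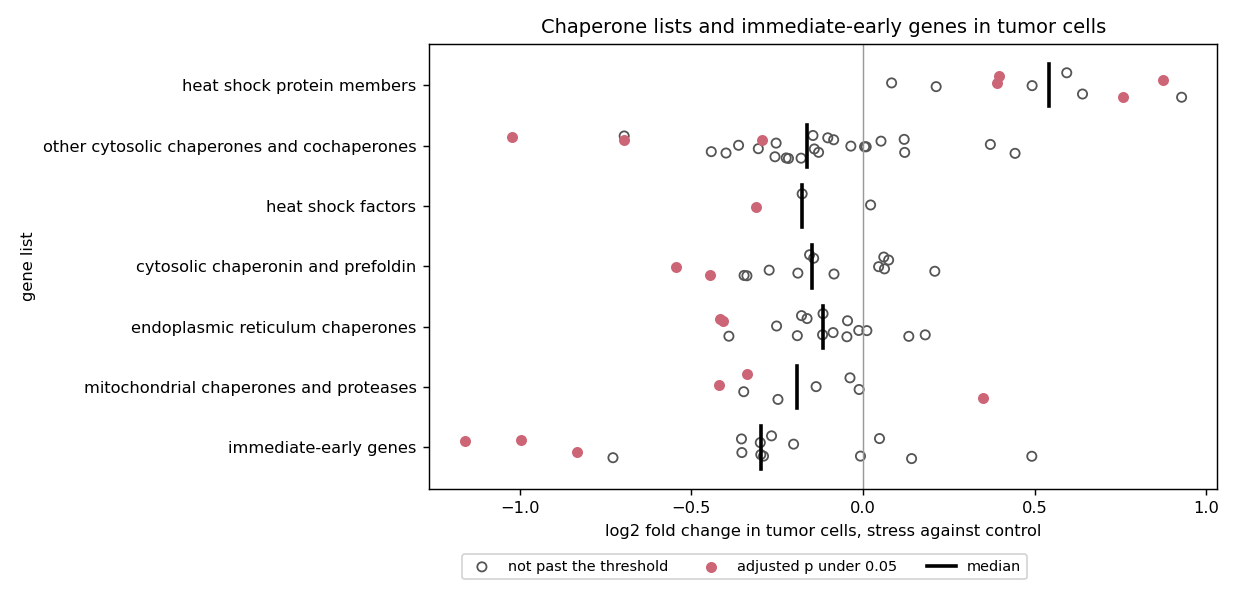
Log2 fold change in tumor cells (x axis, stress against control) for the genes of each list (y axis), with 1 point per gene, filled where the adjusted p was under 0.05, and a bar at the list median. All 10 heat shock proteins lie right of 0 with a median of 0.54, and the 6 other lists have medians below 0.

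The annotation splits tumor cells into 10 clusters, numbered 1, 3, 4, 5, 6, 7, 9, 14, 17 and 21. Clusters 17 and 21 were shallow, with median depths of 1369 to 2877 and 8003 to 12444 UMIs per cell over the mice. The other tumor clusters had 17075 to 42443, and the part of depth in the values by cluster was not tested. Levels across clusters are a description, since the clusters were built on the same cells. In control mice, the inducible HSP70 genes had their highest means in clusters 5 and 6, and cluster 5 overlapped with cluster 17 for both genes. Hspa1b averaged 282 ± 43.0 CPM in cluster 6 and 246 ± 107 CPM in cluster 5 (SD, n = 3 each), which overlapped, against 23.3 ± 8.01 CPM in cluster 9 and 9.47 ± 4.38 CPM in cluster 21. Dnajb1 had its highest mean in cluster 5, at 474 ± 182 CPM, which overlapped with cluster 6, at 312 ± 23.3 CPM. Hspb1 was highest in cluster 6 without overlap, at 922 ± 155 CPM (SD, n = 3 each). Cluster 5 also had the highest summed level of the immediate-early genes, 12032 CPM on average in control mice, and cluster 21 the lowest, 619 CPM. HSP60 was ordered differently. Hspd1 was highest in clusters 1 and 4, at 886 ± 96.9 and 789 ± 114 CPM (SD, n = 3 each), and lowest in cluster 5, at 513 ± 145 CPM, with ranges over mice that overlapped between all neighbors in this order.

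Stress differences ran the same way in the clusters. The clusters are parts of the tumor cells summed above and come from the same mice. Agreement in sign between clusters, or with all tumor cells, is therefore not a separate repeat. Of 99 pairs of a gene and a cluster tested, 98 had a positive log2 difference and 20 passed the threshold, all of them higher in stress mice. The median log2 difference over all genes tested ran from -0.021 in cluster 17 to 0.012 in cluster 21. Cluster 4 had the most calls, 8 of 10 genes, where 7.17% of all genes tested were called higher. There Hspa1a was at 153, 33.7 and 97.6 CPM in the control mice and 403, 231 and 320.5 CPM in the stress mice, a log2 difference of 1.72 (SE 0.46, adjusted p = 0.041). Hspb1 in cluster 4 was at 225, 188 and 172 CPM in the control mice and 619, 434 and 439 CPM in the stress mice, a difference of 1.33 (SE 0.18, adjusted p = 0.004), the lowest adjusted p of the 99 pairs. Hspa1b (1.71), Dnajb1 (1.05), Hsph1 (1.05), Dnaja1 (0.71), Hsp90aa1 (0.62) and Hspa8 (0.55) rose in cluster 4 as well. Clusters 1 and 5 had 4 calls each, beside 7.15% and 1.13% of all genes. In cluster 1 they were Hspa1a (1.62), Hspa1b (1.48), Dnajb1 (0.95) and Hspa8 (0.40). In cluster 5 they were Dnaja1 (0.91), Hsph1 (0.79), Hsp90aa1 (0.77) and Hspa8 (0.68). Genes called in only 1 of these clusters could have like log2 differences in both, such as Dnajb1 (0.95 and 0.92) and Hsph1 (0.69 and 0.79), and no difference between the clusters was tested.

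Cluster 9 had 2 calls, Hspa1a (1.17) and Hspa1b (1.20), beside 7.23% of all genes. Clusters 14 and 17 had 1 call each, Hspa1b (0.59 and 0.84), beside 3.38% and 1.65%. In clusters 3, 6, 7 and 21, edgeR called 0 of the genes, beside 1.56%, 0.554%, 1.78% and 0.399% of all genes, and 7, 3, 6 and 1 of them had an unadjusted p under 0.05, beside 20.9%, 19.9%, 22.2% and 11.2% of all genes in either direction. The counts in clusters 6 and 21 were thus near the share of all genes. Cluster 6 had small differences, with 0.25 for Hspa1a (adjusted p = 0.69) and 0.24 for Hspa1b (adjusted p = 0.48). Whether the difference was smaller there than in cluster 4 was not tested. Hspa8 had a narrow range over the clusters, from 0.30 to 0.68, whereas Hspa1a ranged from 0.25 to 1.72 over the 9 clusters where it was tested, since it did not pass the count filter in cluster 21. Hspd1 was past the threshold in 0 of 10 clusters, with log2 differences from -0.08 to 0.33. The immediate-early genes summed to 8531, 7716 and 8033 CPM in the control mice and 7451, 5999 and 9437 CPM in the stress mice in cluster 4, where the groups overlapped. Of the 15 genes, Atf3 (0.89) and Jund (0.38) rose and Ier2 (-0.60) fell in cluster 4, beside 7.17% and 6.84% of all genes called higher and lower, and in cluster 9 Atf3 rose (1.23) and 0 fell, beside 7.23% and 1.94%. In the other 8 clusters 0 of these genes rose. There fell 3 of 15 in clusters 1, 3 and 14, beside 7.41%, 1.55% and 3.34% of all genes called lower, 4 of 15 in cluster 7 (1.7%), 2 of 15 in cluster 17 (0.356%), 2 of 12 in cluster 21 (0.456%) and 0 of 15 in clusters 5 (0.927%) and 6 (0.614%).

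Single mice decided many of these counts. Without control mouse 2 there were 9 calls each in clusters 1 and 4, 8 in cluster 5, 6 in cluster 9, 5 in cluster 3, 4 in cluster 7, 3 in clusters 14 and 21 and 2 in clusters 6 and 17. The share of all genes called higher was larger in these fits too, with 8.75% in cluster 1, 4.38% in cluster 3, 8.89% in cluster 4, 6.4% in cluster 5, 5.49% in cluster 6, 5.55% in cluster 7, 13.2% in cluster 9, 5.67% in cluster 14, 2.66% in cluster 17 and 1.28% in cluster 21. In cluster 4 there were 3 calls without control mouse 3 (2.51% of all genes) and 5 without stress mouse 1 (4.76%) or stress mouse 3 (4.5%). In cluster 1 there were 2 without control mouse 3 (2.32%), stress mouse 1 (5.15%) or stress mouse 2 (3.29%). In cluster 5 there were 0 without any mouse other than control mouse 2, where at most 0.143% of all genes were called higher. Cluster 9 had 0 calls without control mouse 3, stress mouse 1 or stress mouse 3 and 1 without control mouse 1, beside 2.84% to 6.55% of all genes. Clusters 14 and 17 had 0 calls without control mouse 1, control mouse 3, stress mouse 1 or stress mouse 3, and cluster 17 had 2 without stress mouse 2 (2.09%). In these fits with 0 calls the share of all genes was 1.01% to 1.72% in cluster 14 and 0.239% to 1.24% in cluster 17. Cluster 3 had 1 call without control mouse 1 (0.195%).

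**Figure D3:**
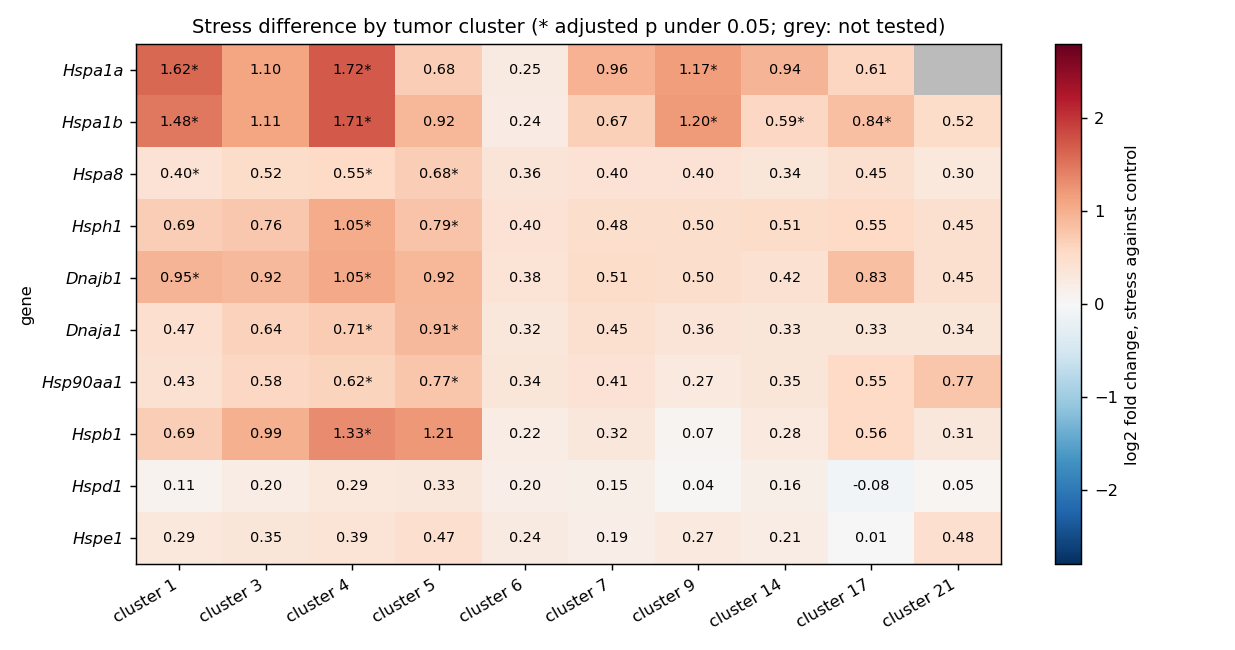
Log2 fold change, stress against control, of each heat shock protein (rows) in each tumor cluster (columns), with an asterisk where the adjusted p was under 0.05 and grey for the pair not tested. Cluster 4 holds 8 asterisks, and the Hspd1 row holds none.

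Across cell types, levels in control mice are again a description. Hspa1b averaged 529 ± 331 CPM in endothelial cells (ECs), 307 ± 151 CPM in monocytes and 285 ± 233 CPM in inflammatory myeloid cells, which overlapped, and 81.7 ± 22.4 CPM in NK/T cells and 19.4 ± 4.94 CPM in B cells (SD, n = 3 each). In tumor cells it averaged 115 ± 31.7 CPM. EC levels rested in part on control mouse 2, with 248, 894 and 445 CPM in the control mice and 816, 834 and 1033 CPM in the stress mice. Hspb1 was highest in HSCs, at 1290.3, 632 and 519 CPM in control mice, from 23, 6 and 8 cells, followed by tumor cells. Hspd1 was highest in M-MDSCs and tumor cells, at 682 ± 94.2 and 680.0 ± 149 CPM, which overlapped. Its lowest mean was in inflammatory myeloid cells, at 186 ± 106 CPM, which overlapped with monocytes. Dnajb1, Hsp90aa1 and Hspe1 also had their highest means in M-MDSCs and tumor cells. Median depths were alike too, at 18600.5 to 33465 UMIs per mouse in M-MDSCs and 21971 to 32523 in tumor cells. Which cells the M-MDSC label holds was not tested. Hspa8 was highest in monocytes, at 1110.4 ± 221 CPM, which overlapped with NK/T cells, at 952 ± 163 CPM. Its lowest mean was in neutrophils, at 426 ± 206 CPM (SD, n = 3 each) from 4, 34 and 17 cells, which overlapped with inflammatory myeloid cells.

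**Figure D4:**
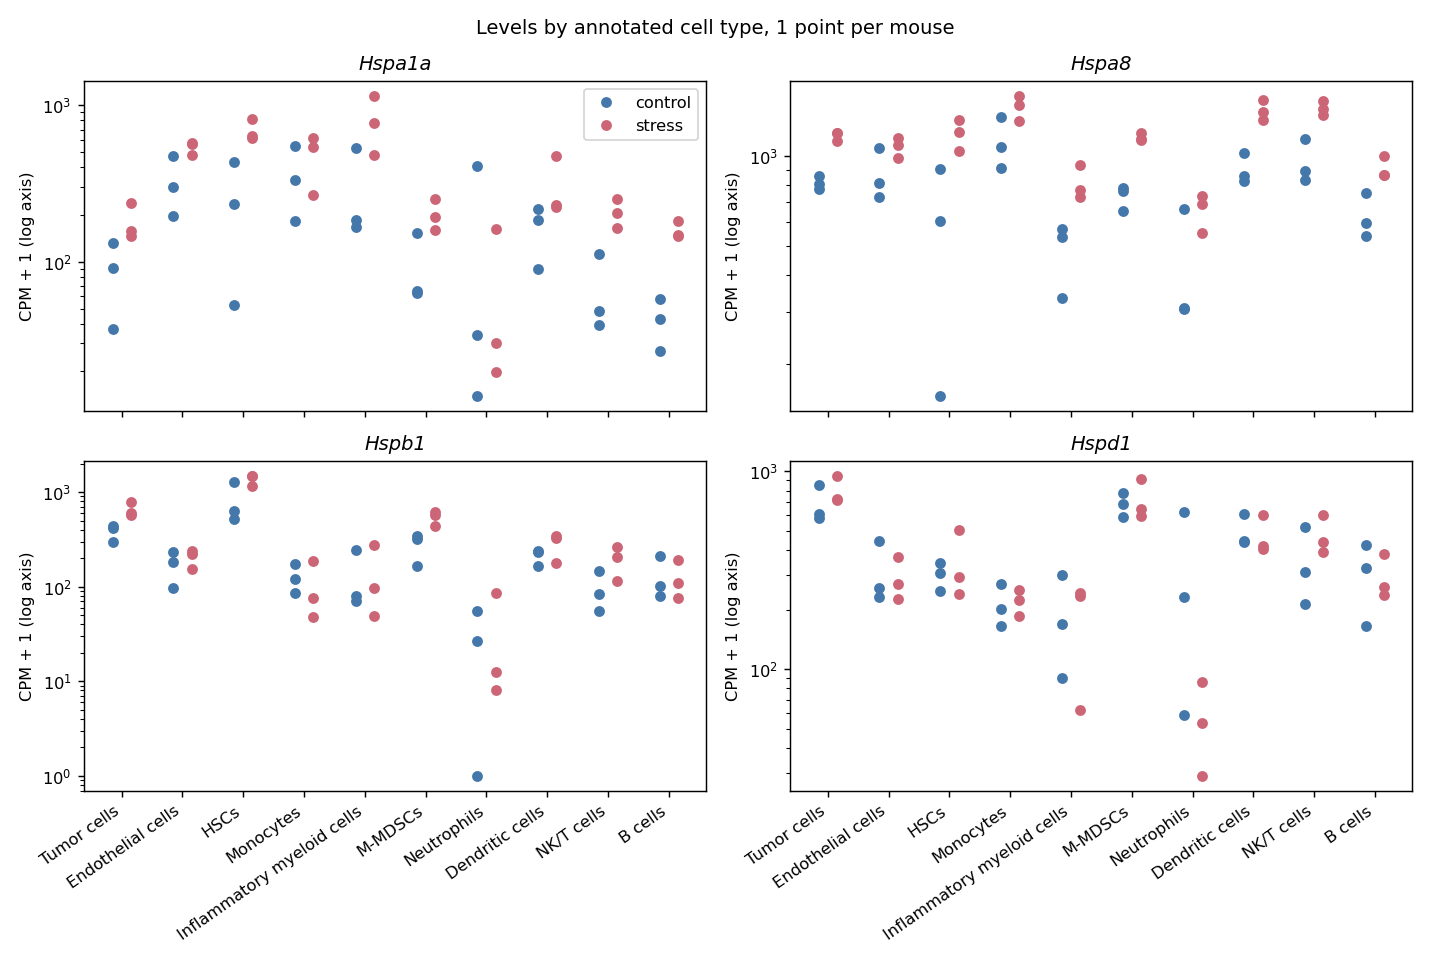
CPM + 1 on a log axis of Hspa1a, Hspa8, Hspb1 and Hspd1 in the 10 annotated cell types, with 1 point per mouse, blue for control and red for stress mice. Stress points lie above all control points for Hspa8 in tumor cells, M-MDSCs, dendritic cells, NK/T cells, B cells, inflammatory myeloid cells and HSCs, whereas the Hspd1 points of both groups overlap in tumor cells.

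Stress differences were positive in 78 of 80 pairs of a gene and a tested cell type, and 13 pairs passed the threshold, all higher in stress mice. Of these calls 4 were in tumor cells, where 12.0% of all genes were called higher, and 9 in B cells, NK/T cells, DCs and M-MDSCs, where 0.307% to 2.13% were. The exceptions in direction were Hspb1 in monocytes (-0.25) and Hspd1 in ECs (-0.14), neither past the threshold. All comparisons of cell types share the same 6 mice, so they are not separate repeats.

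Over the 8 tested types, the log2 difference of Hspa1b ran from 0.74 in ECs to 2.73 in B cells, with 4 calls, and that of Hspa1a from 0.47 in monocytes to 2.08 in B cells, with 2. Hspa8 ran from 0.28 in ECs to 0.92 in inflammatory myeloid cells and Hsp90aa1 from 0.32 in ECs to 1.15 in inflammatory myeloid cells, with 2 calls each. Dnajb1 ran from 0.10 in monocytes to 1.43 in B cells, with 2 calls, and Dnaja1 from 0.35 in ECs to 1.32 in B cells, with 1. The HSP110 gene Hsph1, the small heat shock protein gene Hspb1 and the mitochondrial genes had 0 calls in any type by edgeR. Their unadjusted p was under 0.05 in 6 types for Hsph1, 4 for Hspb1, 1 for Hspe1 and 0 for Hspd1, where 3.96% to 37.4% of all genes in a type had such a p, and in tumor cells DESeq2 called Hspb1 (adjusted p = 0.012) and Hsph1 (adjusted p = 0.033). Hsph1 ran from 0.59 in DCs to 1.51 in B cells and Hspb1 from -0.25 in monocytes to 1.04 in NK/T cells. Hspd1 ran from -0.14 in ECs to 0.51 in NK/T cells and Hspe1 from 0.01 in ECs to 0.48 in NK/T cells.

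The inducible HSP70 genes rose in both lymphocyte classes. In NK/T cells Hspa1b was at 100.1, 88.2 and 56.7 CPM in the control mice and 222, 241 and 225 CPM in the stress mice, and every stress mouse lay at more than 2 times the highest control mouse. Hspa1b rose there by 1.58 (SE 0.18, adjusted p = 0.001), Hspa1a by 1.89 (SE 0.31, adjusted p = 0.013) and Hsp90aa1 by 0.91 (SE 0.19, adjusted p = 0.041) on the log2 scale. In B cells Hspa1b was at 14.2, 24.1 and 19.8 CPM in the control mice and 113, 105 and 153 CPM in the stress mice, without overlap, from 20 to 114 cells per mouse. All B cells of control mice 1, 2 and 3 held 210714, 539352 and 455387 UMIs of any gene. The control levels of Hspa1b thus rest on few UMIs, which limits the size of its difference. The log2 difference was 2.73 (SE 0.33, adjusted p = 0.004) for Hspa1b, 2.08 (SE 0.34, adjusted p = 0.026) for Hspa1a and 1.43 (SE 0.23, adjusted p = 0.023) for Dnajb1. Both types had 3 of 10 genes called, beside 0.536% of all genes in NK/T cells and 0.311% in B cells. For 6 of the 10 genes in each type every stress mouse lay above every control mouse, beside 6.8% and 5.43% of all genes. Without control mouse 3 there was 1 call in NK/T cells and 0 in B cells, beside 0.25% and 0.0894% of all genes, and without control mouse 2 there were 4 in each, beside 0.41% and 0.204%. Without any 1 of the stress mice B cells had 1 call, beside 0.135% to 0.198% of all genes.

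In dendritic cells (DCs), Hspa8 rose by 0.77 (SE 0.14, adjusted p = 0.015) and Dnaja1 by 0.79 (SE 0.18, adjusted p = 0.043), 2 of 10 genes beside 2.13% of all genes. Hspa8 was at 855, 1019.9 and 823 CPM in the control mice and 1537, 1405 and 1321 CPM in the stress mice in DCs. The groups did not overlap for 5 genes, beside 8.28%. Without cluster 19, 1 of 2 DC clusters, 0 genes were called, beside 0.157% of all genes. Cluster 19 held 404146, 2149506 and 1042195 UMIs in the control mice, of 564993, 2878829 and 1337063 in all DCs. In the stress mice it held 624238, 4202908 and 2402148, of 1190284, 6718767 and 4109464. Its part of the DC sum was thus larger in each control mouse than in any stress mouse, and the effect on the differences was not tested. With each cell thinned to 1000 UMIs, 0 of the 10 genes were called, beside 0.768%. There were also 0 without control mouse 1, control mouse 3, stress mouse 1 or stress mouse 3, beside 0.596% to 1.03% of all genes, and 1 without stress mouse 2 (1.81%). In M-MDSCs, Hspa1b was at 111, 94.9 and 67.4 CPM in the control mice and 287, 176 and 329 CPM in the stress mice and rose by 1.59 (SE 0.26, adjusted p = 0.013), the 1 call beside 0.307% of all genes. There the groups did not overlap for 6 genes, beside 7.64%, and 0 genes were called without control mouse 3 (0.113% of all genes) or without stress mouse 3 (0.258%), 2 without control mouse 1 (0.201%) and 4 without control mouse 2 (0.525%).

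In ECs, monocytes and inflammatory myeloid cells edgeR called 0 of the 10 genes, beside 0.106%, 0.106% and 0.0% of all genes. At an unadjusted p under 0.05 there were 1, 3 and 1 genes, beside 15.6%, 12.0% and 3.96% of all genes in either direction, so that the EC count lay below the share of all genes. DESeq2 called 0 in each, beside 1.47%, 0.873% and 0.0651% of all genes called higher. Hspa1a in ECs was at 194, 476 and 297 CPM in the control mice and 575, 483 and 563 CPM in the stress mice, a log2 difference of 0.72 (SE 0.30, adjusted p = 0.31), and without control mouse 2 the ECs had 1 call, beside 0.152% of all genes. Inflammatory myeloid cells had large and scattered values, with Hspa1a at 183, 536 and 166 CPM in the control mice and 765, 480.2 and 1146 CPM in the stress mice and a log2 difference of 1.64 (SE 0.67, adjusted p = 0.99). In ECs 1 gene, in monocytes 2 and in inflammatory myeloid cells 2 had every stress mouse above every control mouse, beside 12.5%, 6.82% and 3.0% of all genes. Immediate-early genes summed to lower levels in each stress mouse than in any control mouse in 7 of the 8 tested types, the exception being ECs, and Fos, Ier2 and Egr1 fell in DCs, M-MDSCs and NK/T cells, 3 of 15 genes in each beside 0.513%, 0.254% and 0.322% of all genes called lower. Their part in the differences was not tested.

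**Figure D5:**
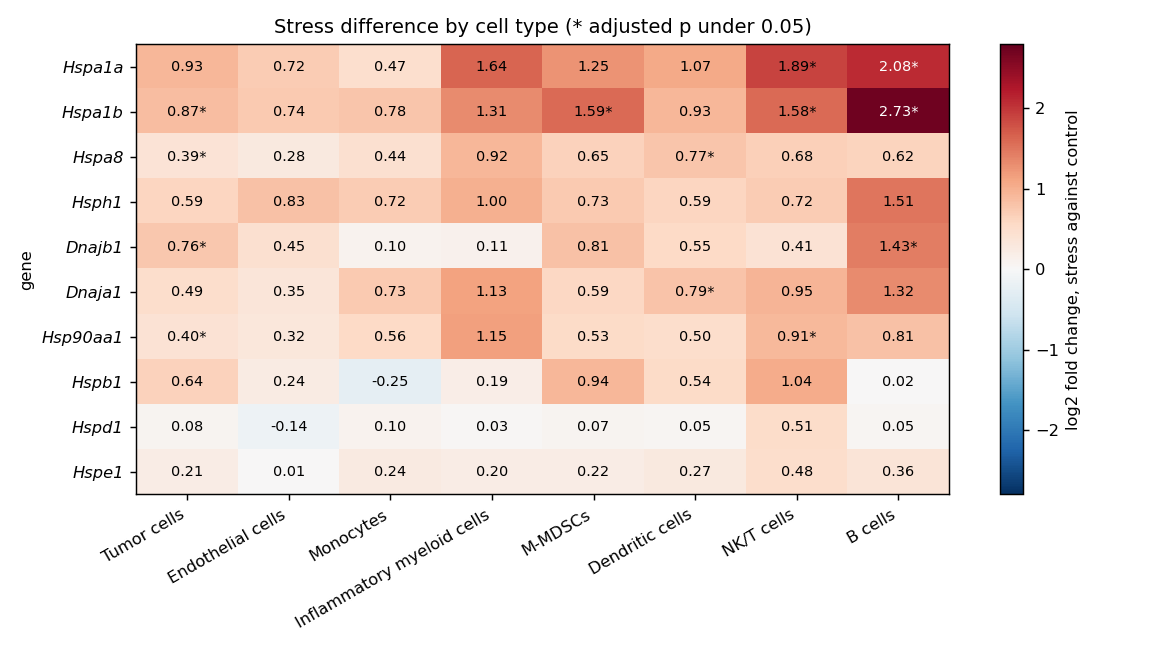
Log2 fold change, stress against control, of each heat shock protein (rows) in the 8 tested cell types (columns), with an asterisk where the adjusted p was under 0.05. Red marks higher values in stress mice, and the largest value is 2.73 for Hspa1b in B cells, where the control levels rest on few UMIs.

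The share of cells with at least 1 UMI of Hspa1a or Hspa1b gave a view per cell. Among tumor cells, with median depths of 21971 to 32523 UMIs per mouse, it was 70.6, 65.0 and 63.7% in the control mice and 83.3, 78.3 and 79.4% in the stress mice. With each cell thinned to 1000 UMIs, which left out 131 shallower cells of control and 193 of stress mice, it was 18.6, 9.17 and 13.4% in the control mice and 28.6, 23.8 and 23.7% in the stress mice. Among NK/T cells, with median depths of 2958 to 5923 UMIs, it was 17.2, 20.6 and 14.3% in the control mice and 42.8, 41.6 and 41.2% in the stress mice, and after thinning, which left out 6 and 16 cells, 6.52, 8.52 and 3.17% in the control mice and 22.5, 21 and 18.2% in the stress mice. Stress mice were higher than all control mice before and after thinning in 5 of 10 annotated types, tumor cells, NK/T cells, B cells, DCs and HSCs. In ECs the highest share was that of control mouse 2, with 34.6, 80.2 and 51.3% in the control mice and 53.5, 55.2 and 64.9% in the stress mice, and after thinning 19.7, 58.7 and 31.3% in the control mice and 34.9, 39.0 and 45.1% in the stress mice. Monocytes overlapped as well, with 46.2, 38.5 and 49.5% in the control mice and 65.1, 39.9 and 48.5% in the stress mice, and so did inflammatory myeloid cells and M-MDSCs. In neutrophils the groups overlapped before thinning and not after it. No cell type here can be taken to lack these genes, so the background from free RNA was not measured.

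Whether the stress difference itself varied between tumor cells and another type was tested as an interaction with the mouse as a block. Against NK/T cells, Hsp90aa1 differed by -0.57 (SE 0.13, adjusted p = 0.046), with a smaller rise in tumor cells (0.40) than in NK/T cells (0.91), and the other 9 genes were not past the threshold, beside 0.742% of all genes called in either direction. Of the 10 genes 8 had an unadjusted p under 0.05, beside 10.7% of all genes. In 9 genes the difference was negative, as was the median over all genes (-0.11), and only 2 of 26 other cytosolic chaperones and 0 of 14 chaperonin and prefoldin genes were positive, so the sign was not particular to the 10 genes. Among the 9 was Dnaja1 at -0.52 (SE 0.14, adjusted p = 0.086), and the exception was Dnajb1 at 0.36 (SE 0.17, adjusted p = 0.45). Against ECs and against monocytes, 0 of the 10 genes passed, beside 0.13% and 0.0634% of all genes, and 0 and 2 had an unadjusted p under 0.05, beside 12.2% and 7.58% of all genes. These 2 were Hspb1, at 1.12 (SE 0.30, adjusted p = 0.29), and Dnajb1, at 0.72 (SE 0.21, adjusted p = 0.36), named after their values were seen. A p that misses the threshold does not show that the types responded alike.

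Genes that varied like Hspa1a plus Hspa1b were sought over 8 cell types and 6 mice, 48 values that share mice and libraries, as log2(CPM + 1) minus the cell type mean, among 5436 genes tested in every type. Apart from the heat shock proteins, the 10 genes with the highest Pearson r were Camk1d (0.78), Lars2 (0.77), Gphn (0.76), Cmss1 (0.75), mt-Atp8 (0.73), Cdk8 (0.72), Rpl10 (0.72), Nfkbib (0.70), Gm19951 (0.70) and Top1 (0.70). Since the values include the group difference, the choice itself favors genes that differ between the groups. All 10 were called higher in tumor cells of stress mice, beside 12.0% of all genes, which is therefore a description, and Camk1d was at 147, 159 and 141 CPM in the control mice and 579, 809 and 870.1 CPM in the stress mice there. Of the other heat shock proteins, Dnaja1 and Hsp90aa1 had r = 0.73, Hspa8 0.70, Hsph1 0.60, Dnajb1 0.50, Hspb1 0.23, Hspe1 0.11 and Hspd1 -0.04. When the group mean was also subtracted, a choice made after seeing the data, the r of the 10 named genes ran from -0.19 for Gphn to 0.16 for Top1, that of Dnaja1 was 0.28 and that of Hsp90aa1 0.27. The other members had 0.10 (Hsph1), 0.05 (Dnajb1), 0.04 (Hspa8), -0.05 (Hspb1), -0.23 (Hspd1) and -0.27 (Hspe1), within or below the range of the named genes. For each of these 18 genes r was lower once the group means were removed, and the groups differ in the software version as well as in stress. All libraries list the same genes, and whether their counting used the same gene models is not given in the sources used here, so a difference in gene models cannot be told apart from stress either.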

How the data were processed

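As deposited by the authors, each library is a matrix of UMI counts without normalization, made by Cell Ranger 9.0.0 (control) and 7.1.0 (stress) on mm10. A further table of theirs gives the mouse, cluster and cell type of each cell. All libraries list the same genes, but the gene annotation used for counting, and whether it was the same in both groups, is not given in the sources used here. Per its methods, the study removed doublets with Scrublet, cells with a high mitochondrial share and cells with few genes, and no further filter or doublet call was applied here. Of 61374 barcodes, the 58794 annotated cells were used.

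Counts were summed per mouse over each of 10 cell types and 10 tumor clusters. Types with at least 10 cells in every mouse (8 of 10, without HSCs and neutrophils) were tested, and all 10 clusters, by the quasi-likelihood test of edgeR 4.0.16 under R 4.3.3 (genes kept by filterByExpr, TMM scaling, adjusted p under 0.05 over all genes tested). Clusters come from the authors' table. The edgeR step was run on simulated counts of tumor cells with the same dispersion for every gene. That run does not show how the test behaves in the smaller cell types or at the spread between these mice. DESeq2 1.42.0, RLE normalization, no count filter, a replicate block, leaving out each mouse, thinning to 1000 UMIs and summing Hspa1a and Hspa1b were alternatives. Python 3.11.15, numpy 2.4.6, pandas 2.3.3 and matplotlib 3.10.9 were used for tables and figures. Replicate numbers were not taken as pairs, since the labels tie no mice to each other. Same-numbered mice 1 and 2 deviated together in most tested cell types. Mice 3 did not in any, as judged against the highest correlation with a mouse of another number.

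The 10 genes and all other gene lists were chosen with earlier results of these data known. From the other lists, at most 4 genes per direction were named, those past the threshold by size of change. The 10 genes most like Hspa1a plus Hspa1b were named by correlation with a pseudocount of 1. Nothing in the labels links mice to litters or cages, precision is limited by 3 mice per group, and counting intervals would not cover the spread between mice. HSCs and neutrophils had 6 to 50 and 4 to 57 cells per mouse.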

Additional observations from a re-analysis of the deposited data

Results flagged for a closer look

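The stress difference of Hsp90aa1 was smaller in tumor cells than in NK/T cells by an interaction test, with a log2 difference between the types of -0.575 (edgeR, adjusted p = 0.046). The median over all genes in that test was -0.11. The interaction was not repeated with any mouse left out or under another processing alternative.

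HSCs were in no comparison, since 1 mouse had 6 of these cells, and for 6 heat shock proteins every stress mouse lay above every control mouse there, beside 7.76% of the 4575 genes that passed the count filter in HSCs. The ratio of the stress mean to the control mean in CPM was 2.89 for Hspa1a, 3.95 for Hspa1b, 2.52 for Dnajb1, 2.13 for Hsp90aa1, 2.15 for Hspa8 and 1.72 for Hspe1. Hspa1b in HSCs was at 163, 302 and 64.8 CPM in the control mice and 574, 679 and 839 CPM in the stress mice. The control values rest on 23, 6 and 8 cells, and these differences were not tested. The median UMIs per HSC were 11988, 8241.5 and 6494.5 in the control mice and 13366.5, 13826 and 15140.0 in the stress mice, so depth separated the groups as well, and its part in the differences was not tested. In neutrophils, the other type in no comparison, the groups overlapped for all 10 genes, of which 5 passed the count filter, and of the 1821 genes that passed it 6.37% had all stress mice above and 6.86% all stress mice below the control mice.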

How the results depend on the processing

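0 of the 10 genes were called lower in stress mice in any type, cluster or alternative. Numbers called higher moved as follows. In parentheses stands the share of all genes called higher in the same fit. DESeq2 called 7 in tumor cells (13.1%), 5 in B cells (0.535%), 6 in M-MDSCs (0.455%) and 5 in NK/T cells (0.857%). Without a count filter 5 were called in B cells (1.18%), 8 in DCs (2.91%), 7 in M-MDSCs (1.1%) and 7 in NK/T cells (1.45%). Thinned to 1000 UMIs, 0 of 10 genes were called in DCs (0.768%) and 7 of 10 in NK/T cells (1.71%). In B cells (0.914%) and M-MDSCs (0.676%) 0 were called, but 7 of the 10 genes passed the count filter in each, and Hspa1b, the 1 gene called in M-MDSCs at full depth, was not tested in either, nor was Dnajb1 in B cells, where Hspa1a stood at 1.69 (adjusted p = 0.21). Without DC cluster 19, an alternative added after seeing the data, 0 were called in DCs (0.157%), whereas leaving out EC cluster 15 (0 calls, 0.107%) or tumor clusters 17 and 21 (4 calls, 11.9%) changed no count. Leaving out 1 mouse gave 0 to 6 in tumor cells (3.79% to 15.3%), 0 to 4 in B cells (0.0894% to 0.258%), 0 to 3 in DCs (0.596% to 2.53%), 0 to 1 in ECs (0.0208% to 0.152%), 0 to 4 in M-MDSCs (0.113% to 0.525%) and 1 to 4 in NK/T cells (0.217% to 0.809%). By tumor cluster the range was 2 to 9 in cluster 1 (2.32% to 8.75%), 0 to 5 in cluster 3 (0.0554% to 4.38%), 3 to 9 in cluster 4 (2.51% to 8.89%), 0 to 8 in cluster 5 (0% to 6.4%), 0 to 2 in cluster 6 (0% to 5.49%), 0 to 4 in cluster 7 (0.178% to 5.55%), 0 to 6 in cluster 9 (2.84% to 13.2%), 0 to 3 in cluster 14 (1.01% to 5.67%), 0 to 2 in cluster 17 (0.239% to 2.66%) and 0 to 3 in cluster 21 (0.163% to 1.28%), and leaving out control mouse 2 gave the highest value in each cluster, shared with stress mouse 2 in cluster 17. In tumor cells the log2 difference of Hspd1 changed sign without control mouse 1 (-0.017) and without stress mouse 2 (-0.0185), with a highest value of 0.25 without control mouse 2, and the other 9 genes stayed positive in every alternative. The cause of these moves was not tested.

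With the replicate number as a block, 8 genes were called in tumor cells (13.9%), 5 in B cells (0.69%), 6 in DCs (4.45%), 4 in M-MDSCs (0.762%) and 6 in NK/T cells (1.19%), and by tumor cluster 8 in cluster 1 (9.03%), 8 in cluster 3 (4.58%), 7 in cluster 5 (2.84%), 3 in cluster 7 (2.94%), 4 in cluster 9 (9.48%), 3 in cluster 14 (3.3%), 0 in cluster 17 (1.39%) and 2 in cluster 21 (1.29%). In tumor cells the same-numbered mice had correlations of 0.50, 0.39 and -0.13. The highest correlations with a mouse of another number were 0.33, 0.28 and 0.33 there. In monocytes the same-numbered mice had 0.48, 0.42 and 0.15, beside 0.03, 0.19 and 0.19. Mice 1 and 2 thus deviated with their same-numbered mouse in both types, and mice 3 did not. The reason was not tested. The labels tie no mice to each other, so the numbers were not taken as pairs in any type, and the block changed no other count by over 1.5 times. B cells held 20 to 114 cells per mouse and M-MDSCs 15 to 108, which limits what could be detected there.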
